A study of Saccharomyces cerevisiae with 16 samples.

Results

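The comparison covers the 4 H3K4me3 libraries of budding yeast carrying synHPRT1R, of 16 libraries in the series and 8 with a peak list analysed here. They were chosen by their titles. In 2 libraries the locus was a yeast artificial chromosome (YAC), an episome with a centromere and an origin of replication, and in the other 2 it was integrated into chromosome XI in place of YKL162C-A. synHPRT1R is a synthetic locus that carries human HPRT1 and its surroundings with the order of the bases reversed but not complemented. Both strains derive from BY4741, a laboratory MATa strain in which HIS3, LEU2, MET15 (MET17) and URA3 are deleted in whole or in part. The integrated strain was made from the YAC strain through a URA3 landing pad, Cre recombinase expressed from a galactose-inducible HIS3 plasmid, and counterselection. YAC strains grew in synthetic medium without leucine, which selects the LEU2 marker of the YAC vector, and integrated strains grew in rich medium (YPD). Context and medium therefore cannot be told apart in any value that follows. The 2 libraries of each strain came from separate colonies of 1 strain, which the study calls technical replicates in one place and biological replicates in another, so the spread given here is that between colonies.

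H3K4me3 is trimethylation of lysine 4 of histone H3. In yeast it is laid down by Set1, the catalytic subunit of COMPASS, as RNA polymerase II starts to elongate, and it marks the nucleosomes at the beginning of transcribed genes. CUT&RUN tethers a nuclease to chromatin bound by the antibody and sequences what it cuts loose. The peak lists give the fold enrichment and the Poisson p-value of each summit, from which the number of fragments over it and the local background were solved. Height is given below as fragments over a summit in multiples of the genome-wide background of the same library.

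The YAC libraries held 3463 and 3939 peaks and the integrated libraries 4021 and 3881. The genome-wide background, which stands for depth, was 98.9 and 78.6 fragments in the YAC libraries and 78.0 and 83.3 in the integrated libraries. YAC replicate 1 stood apart: it had the highest background, and its median nuclear summit was 1.94 times background, against 2.32 in YAC replicate 2 and 2.36 and 2.44 in the integrated libraries. Across 2239 genes its log2 heights correlated with the other 3 libraries at Pearson r of 0.75 to 0.80, and the other 3 with each other at 0.90 to 0.93, as a description across genes of libraries that share annotation and peak caller. Separated regions, gene calls, CTR1, locus coverage and the ratio of shared locus summits are also given without it. Other results, among them the gene lists and the interaction test, include it. Of 5 MATa-specific genes, only STE6, the a-factor exporter, had a summit at its start in all 4 libraries, 3 had none in any, and MFA2 had one in YAC replicate 1. None of 3 MATalpha-specific genes had one. URA3 and MET17, both deleted in this background, had no peak in any of the 4 libraries, and a peak covered HIS3 in all 4.

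The junction at which the strains differ by construction is shown first. The study used the 2 stretches of chromosome XI on either side of YKL162C-A as homology arms. The left arm is chrXI:146136-146350 and the right arm is chrXI:146508-146829 (sacCer3), and both were identical, base for base, to the reference assembly used here. The 157 bases between them, chrXI:146351-146507, are what the locus replaced. The left arm is printed on the plus strand, with the 75 bases in capitals that lie under a peak region held by both integrated libraries and neither YAC library.
Left homology arm: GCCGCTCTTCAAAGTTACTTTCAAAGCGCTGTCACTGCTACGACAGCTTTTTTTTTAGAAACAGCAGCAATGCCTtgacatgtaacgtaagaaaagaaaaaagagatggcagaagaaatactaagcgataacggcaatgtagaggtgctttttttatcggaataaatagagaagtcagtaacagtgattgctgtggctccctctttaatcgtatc

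That region, chrXI:145851-146210, lies between PIR3, which encodes a cell wall protein with internal repeats, and the insertion site. The nearest peak of a YAC library was 795 bp away, and its heights in the integrated libraries were 2.04 and 2.23, with summits at 146051 and 146061. Neither synHPRT1 YAC library had a peak at the same place, and both synHPRT1 integrated libraries had one, at 2.83 and 2.86. A second region, chrXI:144740-145510, covered the later part of PIR3 and reached past its end. It had heights of 1.71 and 1.72 in the integrated libraries, and neither the YAC libraries nor any synHPRT1 library had a peak there. YKL162C, the gene on the other side, had no peak in any of the 4 libraries. YAC replicate 1 alone had a peak at chrXI:147006-147264, with a height of 1.48.

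LEU2, which encodes beta-isopropylmalate dehydrogenase of the leucine branch, gave the clearest separation on the nuclear chromosomes. Its region, chrIII:91100-92504, had heights of 3.87 and 5.64 in the YAC libraries and no peak in the integrated libraries. The synHPRT1 YAC libraries had 4.84 and 4.33 there and the synHPRT1 integrated libraries had none. The chromosomal gene is deleted in BY4741 and the YAC vector carries LEU2, so this region separates the strains by the DNA they hold. It is still counted among the YAC-only regions below. The 300 bases from 250 before to 50 from the start of the LEU2 coding sequence, chrIII:91074-91373, read on the plus strand, are shown because the YAC peak began inside them. Capitals mark the consensus of Leu3, the activator of the leucine branch, at 198 bases before the start. They also mark the stress response element of Msn2 and Msn4 (AGGGG, on the other strand), at 7 bases past the start and so inside the coding sequence. Searched on both strands, the Leu3 consensus was found in 8 of 6001 promoters of this length (0.133%) and AGGGG in 1297 (21.6%). A match is a description of these letters only.
LEU2 promoter: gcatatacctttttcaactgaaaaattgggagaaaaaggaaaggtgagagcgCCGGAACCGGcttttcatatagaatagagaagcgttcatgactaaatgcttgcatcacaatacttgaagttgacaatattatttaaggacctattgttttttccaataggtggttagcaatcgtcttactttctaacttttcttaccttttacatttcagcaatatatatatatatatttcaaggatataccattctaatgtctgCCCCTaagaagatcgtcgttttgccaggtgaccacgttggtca

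On chromosomes I to XVI the peaks of the 4 libraries merged into 3835 regions. Of these, 2884 (75.2%) had a peak in all 4 libraries, 51 had a peak in both YAC libraries and in no integrated library (1.33% of all regions), and 110 had a peak in both integrated libraries and in no YAC library (2.87%). These are counts of separated regions, with no test, since 2 libraries against 2 cannot give a two-sided exact permutation p below 0.333. The excess of integrated-only regions depended on which peaks were counted. With the 3000 peaks of highest −log10 q of each library there were 67 YAC-only and 68 integrated-only regions, and with peaks of a −log10 q of 10 or more there were 25 and 124. Colonies of the same strain disagreed more often than the contexts separated. A peak was present in 1 of the 2 YAC libraries in 545 regions and in 1 of the 2 integrated libraries in 352. With 1 library left out, its group rests on a single library, which loosens the rule. Both counts were then higher whichever library was left out. Without YAC replicate 1 the counts were 130 YAC-only and 155 integrated-only regions, and without YAC replicate 2 they were 152 and 353. A region with no peak is one in which the caller found none, which does not show that the mark was absent.

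**Figure D1:**
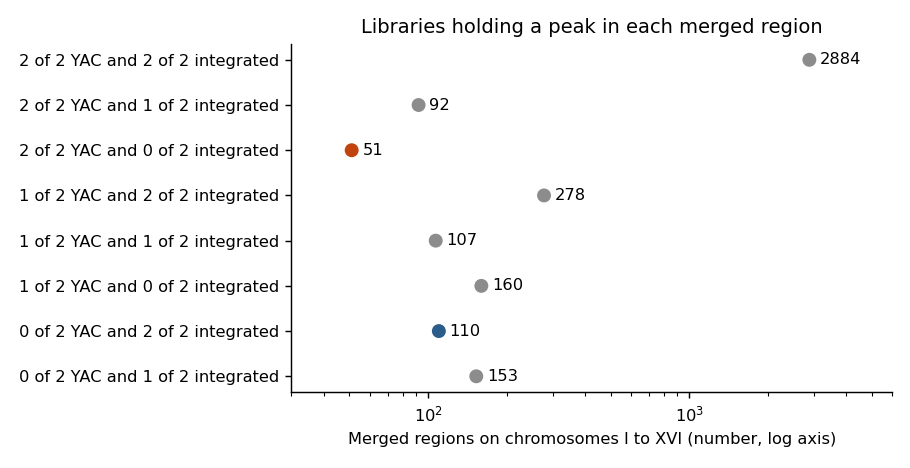
Number of merged regions on chromosomes I to XVI (x axis, log scale) by how many of the 2 YAC and 2 integrated libraries held a peak in them (rows). The 51 YAC-only regions are in red and the 110 integrated-only regions in blue, and 2884 regions had a peak in all 4 libraries.

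The separated regions were low and narrow. Their median width was 363 bp for YAC-only and 368 bp for integrated-only regions, against 944 bp for regions with a peak in all 4 libraries. The median height was 1.73 in YAC-only regions and 1.66 in integrated-only regions, and 37 of the 51 and 90 of the 110 had a median −log10 q under 10. A summit lay within 200 bp before to 800 bp after a gene start in 41 of 51 YAC-only and 68 of 110 integrated-only regions. Of the YAC-only regions, 1 lay inside a gene away from its start and 9 between genes, against 21 and 21 of the integrated-only regions. Few lay beside a peak of the other context: 3 YAC-only regions (5.88%) and 11 integrated-only regions (10.0%) were within 200 bp of one.

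The 4 synHPRT1 libraries, which took no part in choosing these regions, separated some of them the same way. The synHPRT1 strains carry the locus in its native base order and were grown in the same 2 media, so they share the link of context to medium. For 1 of them, synHPRT1 YAC replicate 2, the source label names synHPRT1R, while its title and genotype name synHPRT1. Of the 51 YAC-only regions, 8 (15.7%) had a peak in both synHPRT1 YAC libraries and in no synHPRT1 integrated library, a pattern found in 46 of all 3835 regions (1.199%), and 2 showed the opposite. Of the 110 integrated-only regions, 23 (20.9%) had a peak in both synHPRT1 integrated libraries and in no synHPRT1 YAC library, against 98 of all regions (2.56%), and 4 showed the opposite. As a share of the synHPRT1 patterns these are 8 of 46 and 23 of 98. Among the 8 is LEU2, which the vector of both YAC strains carries, so that it repeats by construction. Among the 23 is the region after PIR3, which overlaps the homology arm used in both integrated strains. Most separated regions were not separated in the other strains: 29 of 51 and 56 of 110 had a peak in at least 1 synHPRT1 library of each context, against 3428 of all 3835 regions. A region with a peak in all 4 synHPRT1 libraries cannot show either pattern. That held for 3030 of all 3835 regions, but for 5 of the 51 and 18 of the 110. The median nuclear summit was 2.16 and 2.17 in the synHPRT1 YAC libraries and 2.62 and 2.52 in the synHPRT1 integrated libraries. YAC summits were therefore lower in these strains too, and the part of this in the shares was not tested. No set of regions of like height was compared.

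Among the 12 YAC-only regions with the highest −log10 q, LEU2 and HDA2 kept the pattern in synHPRT1. HDA2 encodes a subunit of the Hda1 histone deacetylase complex. Its region, chrIV:1054321-1054600 with the summit 153 bp past the start of HDA2, had heights of 1.60 and 2.29 in the synHPRT1R YAC libraries and 1.86 and 2.05 in the synHPRT1 YAC libraries, and no peak in the 4 integrated libraries. The other 6 regions with that pattern, outside the 12 and named after their values were seen, lay at or near RSC30, COA2, CYC1, SND1, YLR326W and ATG33. RSC30 encodes a subunit of the RSC chromatin remodeller, and the region lay inside the gene, far from its start. Its heights were 3.82 and 2.86 in the YAC libraries and 2.43 and 3.06 in the synHPRT1 YAC libraries. Its −log10 q in the YAC libraries, 15.39 and 5.065, was low for these heights, so the local background there was above the genome-wide one. Whether its fragments align to this place alone was not tested. CYC1 encodes cytochrome c and COA2 a factor for the assembly of cytochrome oxidase. The region 235 bp before CYC1 had heights of 1.70 and 1.97 in the YAC libraries, and the region 110 bp before COA2 had 1.92 and 1.58.

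A different pattern was held by SHO1, IFM1, PRS4, MDM30, CPT1, TRF5, RBP95 and BUR2 and by the region nearest to LUG1. These 9 of the 12 YAC-only regions had a peak in both synHPRT1 integrated libraries as well as in at least 1 synHPRT1 YAC library, so that among the 4 strains the synHPRT1R integrated strain alone had no peak there in either colony. SHO1, an osmosensor of the high-osmolarity glycerol pathway, was the highest of them. Its region, chrV:398612-399275, had heights of 2.51 and 3.30 in the synHPRT1R YAC libraries, none in the synHPRT1R integrated libraries, 2.96 in synHPRT1 YAC replicate 2, and 3.90 and 4.25 in the synHPRT1 integrated libraries. The nearest peak of a synHPRT1R integrated library was 998 bp away. The region 16 bp before the start of IFM1, which encodes a mitochondrial translation initiation factor, had 2.104 and 2.37 in the YAC libraries, and the nearest peak of an integrated library lay 2511 bp away. PRS4, a subunit of phosphoribosyl pyrophosphate synthetase, had 2.13 and 2.58, and MDM30, an F-box protein of mitochondrial fusion, had 2.195 and 2.07. TRF5, a poly(A) polymerase of the nuclear RNA surveillance machinery, had 1.59 and 2.30. CPT1, a cholinephosphotransferase, had 1.94 and 1.76 and lay 184 bp from a peak of an integrated library. BUR2, the cyclin of the Bur1 kinase, had 1.93 and 1.76, and RBP95 had 1.83 and 1.85. The region near LUG1 had 1.99 and 1.90.

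Among the 12 integrated-only regions with the highest −log10 q, 5 had the same pattern in synHPRT1, namely those near TIR1, AHC2, PIR3, IRC8 and HSP150. TIR1 and HSP150, like PIR3, encode cell wall mannoproteins. The region 400 bp before TIR1, chrV:174601-175054, had heights of 2.41 and 2.29 in the integrated libraries and 2.18 and 2.104 in the synHPRT1 integrated libraries. The region 511 bp before HSP150, chrX:119852-120047, had 2.102 and 2.26 and, in synHPRT1, 2.19 and 2.05. AHC2, a component of the ADA histone acetyltransferase complex, had its region over the start, chrIII:258798-259203, at 2.26 and 2.04 and, in synHPRT1, 2.41 and 2.01. The region inside IRC8, chrX:341802-342193, had 2.17 and 2.102 and, in synHPRT1, 1.82 and 1.96. No YAC library of either locus had a peak in any of these 5. The stretches after PIR3 and before HSP150 are printed, on the plus strand of sacCer3, as separated regions beside cell wall genes that repeated in the other strains. For PIR3 it is the central 300 bases, chrXI:145881-146180, which run into the left homology arm, and for HSP150 the whole region, chrX:119852-120047. Capitals mark AGGGG, or the same element read on the other strand, which occurred at 2 places in each. The central 300 bases of the TIR1, AHC2, IRC8 and HDA2 regions held none of the 5 motifs searched.
Region after PIR3: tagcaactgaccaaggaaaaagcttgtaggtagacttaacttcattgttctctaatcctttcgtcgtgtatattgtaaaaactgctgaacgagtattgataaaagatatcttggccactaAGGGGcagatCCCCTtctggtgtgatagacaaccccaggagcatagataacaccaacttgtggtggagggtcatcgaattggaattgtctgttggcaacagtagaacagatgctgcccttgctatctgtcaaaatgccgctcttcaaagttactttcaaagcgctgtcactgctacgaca
Region before HSP150: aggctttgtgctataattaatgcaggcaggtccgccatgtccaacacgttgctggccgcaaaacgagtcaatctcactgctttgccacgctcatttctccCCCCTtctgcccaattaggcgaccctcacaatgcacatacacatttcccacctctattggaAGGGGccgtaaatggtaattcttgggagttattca

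AGGGG was found in the central 300 bases of 9 of 51 YAC-only regions (17.6%), 29 of 110 integrated-only regions (26.4%) and 821 of all 3835 regions (21.4%). TGACTCA of Gcn4, the activator of amino acid synthesis, was found in 1 (1.96%), 3 (2.73%) and 108 (2.82%), GAGCAAA of the copper regulator Mac1 in 2 (3.92%), 6 (5.45%) and 243 (6.34%), and TGCACCC of the iron regulator Aft1 in 2 (3.92%), 1 (0.909%) and 48 (1.25%). Both strands were searched. These shares are a description and were not tested.

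The other 7 of the 12 integrated-only regions had a peak in both synHPRT1 integrated libraries and in at least 1 synHPRT1 YAC library. The region before YER137C had the highest −log10 q, with heights of 2.40 and 2.04 in the integrated libraries. SSA1, which encodes a cytosolic Hsp70 chaperone, had 2.13 and 2.102, and SUN4, a cell wall protein of the septum, had 2.68 and 1.98. MPF1 had 2.49 and 1.97 and SUT2 had 1.96 and 1.91, while the region before TOS8, which encodes a homeodomain protein, had 2.00 and 1.95. The region inside YRF1-6 had 2.00 and 1.81. YRF1-6 belongs to the Y′ elements, which exist in near-identical copies at many chromosome ends, so its fragments may come from other copies. Of the 18 further integrated-only regions that repeated in synHPRT1, the one of greatest height was at the start of MAS1, a subunit of the mitochondrial processing peptidase, at 2.79 in both integrated libraries. Its −log10 q was low, at 3.38 and 4.5 in these libraries, and ranked 89 among the integrated-only regions. ATF1, an alcohol acetyltransferase, had 1.86 and 1.89, and TPO2, a polyamine exporter, had 1.85 and 1.54. These 3 were named after their values were seen.

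**Figure D2:**
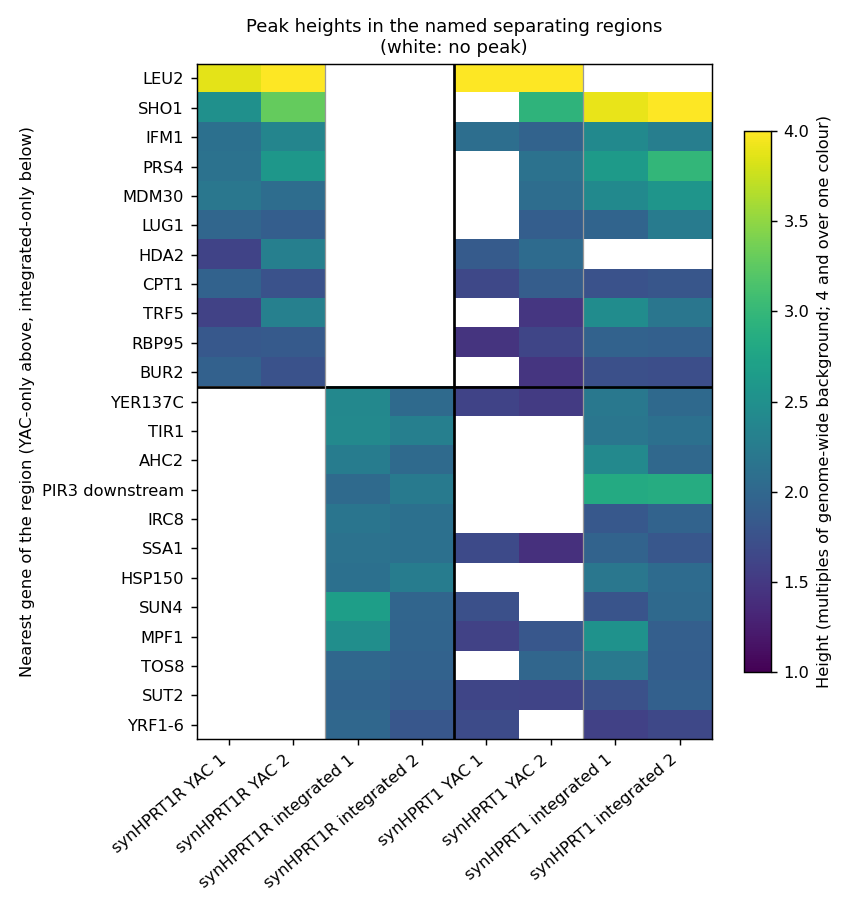
Height of the highest summit (colour, in multiples of the genome-wide background, with 4 and over in one colour) in 11 of the 12 YAC-only regions (above) and in the 12 integrated-only regions (below) of highest −log10 q, by library. White marks a library with no peak. LEU2 and HDA2 above and TIR1, AHC2, the region downstream of PIR3, IRC8 and HSP150 below separate the contexts in both the synHPRT1R (left) and synHPRT1 (right) strains, and the other rows do not.

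The height of the mark at gene starts was compared next, for genes that have a summit in every library. A gene took the highest summit from 200 bp before to 800 bp after its start, and 2239 of 6002 protein-coding genes had one in all 4 libraries. No gene passed limma's moderated test with Benjamini-Hochberg adjustment in either direction (0 higher and 0 lower in YAC, 0% of 2239), and the smallest adjusted p was 0.295. At an unadjusted p under 0.05, 2 genes were higher and 176 lower in the YAC libraries. The YAC libraries were both above both integrated libraries at 40 genes (1.79%) and both below at 1017 genes (45.4%). The median log2 height was 0.99 and 1.30 in the YAC libraries and 1.34 and 1.39 in the integrated libraries, a median difference of −0.20 on the log2 scale. It was −0.05 without YAC replicate 1 and −0.36 without YAC replicate 2. Without YAC replicate 2, with YAC replicate 1 alone standing for its group and assumed to vary like the others, 6 genes were called higher and 1410 lower. The fit was therefore also run with each library centred on its median, and the source of the lower YAC median was not tested.

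CTR1, which encodes the high-affinity copper transporter of the plasma membrane, showed the largest difference of all genes tested. Its height was 1.67 and 2.46 in the YAC libraries and 3.64 and 3.52 in the integrated libraries, so both YAC values lay below both integrated values. The log2 difference was −0.82 ± 0.24 (moderated SE, 2 libraries a group) with an adjusted p of 0.34 in limma. This SE draws on the variance of all genes tested and is not the spread of CTR1 between colonies alone. After each library was centred on its median over genes the difference was −0.61 with an adjusted p of 0.048, and CTR1 was then the only gene called (0.0447% of genes tested). With 1 library left out, its group is a single library assumed to vary like the other group. The adjusted p of CTR1, uncentred, was then 0.027 without YAC replicate 1 (a difference of −0.54) and 4.29e-15 without YAC replicate 2 (−1.10), but 0.982 without integrated replicate 1 (−0.80) and 0.999 without integrated replicate 2 (−0.85). The synHPRT1 libraries had 2.16 and 2.31 (YAC) and 3.53 and 3.06 (integrated) at CTR1, a log2 difference of −0.56 with an adjusted p of 4.77e-05 in limma over 1918 genes. In those strains 1 gene was called higher and 1017 lower in YAC, with a median difference of −0.27. Centred on the median, CTR1 differed there by −0.29 with an adjusted p of 0.077.

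After CTR1 the largest decreases in the log2 difference were those of STM1, NAB2, CCR4 and SIS1. None of these, nor the genes of the largest positive differences given after them, passed the test, and all were named after their values were seen. STM1, a ribosome-associated protein, had heights of 2.06 and 3.10 in the YAC libraries and 4.02 and 4.29 in the integrated libraries. NAB2, a nuclear poly(A)-binding protein, had 1.69 and 3.37 against 3.81 and 4.02, and CCR4, a deadenylase, had 2.31 and 4.63 against 5.14 and 5.58. In all 3 the lower YAC value was that of replicate 1. SIS1, an Hsp40 co-chaperone, had 1.53 and 1.96 against 2.96 and 2.58 and the smallest unadjusted p of the set, with an adjusted p of 0.295. The largest positive differences were those of HMRA1, SYP1 and COX8. HMRA1 had 2.48 and 1.92 in the YAC libraries and 1.69 and 1.78 in the integrated libraries. It belongs to the silent mating cassette HMR, whose sequence is shared with the expressed MATa locus, so its fragments cannot be assigned to either. SYP1, an adaptor of endocytosis, had 2.19 and 1.91 against 1.59 and 1.67, and COX8, a subunit of cytochrome oxidase, had 1.83 and 2.25 against 1.60 and 1.68. The difference between the synHPRT1R and the synHPRT1 effect of context was tested by an interaction term in limma over 8 libraries. It was passed by 0 of 1918 genes (smallest adjusted p 0.998, 77 genes at an unadjusted p under 0.05), and centred on the median by 0 (smallest adjusted p 0.27, 216 genes).

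**Figure D3:**
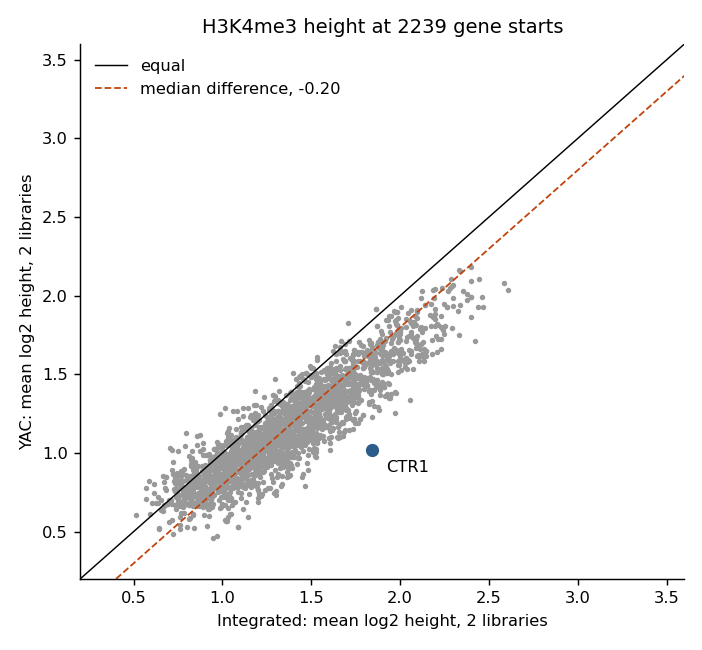
Mean log2 height at gene starts in the 2 YAC libraries (y axis) against the 2 integrated libraries (x axis), one point for each of 2239 genes. The solid line marks equal heights and the dashed line the median difference of −0.20, and CTR1 lies farthest below it.

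The 2 media differ in amino acids, peptides, nucleobases, vitamins and metals, and yeast adjusts the genes for making or importing these to what the medium supplies. Lists of such genes were therefore described, 174 genes in all. No member of any list passed the test, and each list is set against the median difference of −0.20 over all genes tested. That median was −0.05 without YAC replicate 1, and the list medians were not taken without it. A peak summit was held by both YAC and no integrated libraries at 102 of 6002 genes (1.7%) and by both integrated and no YAC libraries at 142 (2.37%). A gene without a summit in its window can still lie under a broad peak with its summit elsewhere, as at PGK1, which had a peak over the gene in all 4 libraries and a summit in the window in 1.

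Of 13 genes of the leucine branch, 8 were tested, with a median difference of −0.29. LEU4, the first enzyme, had no summit in any library, and LEU9, its isozyme, had 2.16 and 2.60 in the YAC libraries and 2.45 and 3.36 in the integrated libraries. LEU2, which the YAC vector carries, was the only member held by YAC libraries alone. BAT2, the cytosolic branched-chain aminotransferase, was the only member held by integrated libraries alone, at 2.00 and 1.83, and all 4 synHPRT1 libraries had it, at 1.72 to 1.92. Of 34 genes of other amino acid synthesis, 20 were tested, with a median of −0.19. ARG1, argininosuccinate synthetase, had a summit in the YAC libraries alone (1.84 and 1.54), and in 1 synHPRT1 library, a YAC one (2.34). ARG3, ornithine carbamoyltransferase, had no summit in any of the 4 libraries. Outside the list, SER3, which encodes phosphoglycerate dehydrogenase of serine synthesis, had a YAC-only region at 1.40 and 1.83, and was named after its values were seen.

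Of 15 sulfur amino acid genes, 5 were tested, with a median of −0.44. MET3, ATP sulfurylase, had no summit, and MET14, adenylylsulfate kinase, had 1.95 and 2.02 in the YAC libraries and 2.17 and 2.07 in the integrated libraries. SAM2, one of a pair of S-adenosylmethionine synthetases, had a summit in the integrated libraries alone, at 1.87 and 1.68, and the other, SAM1, had 1.67 and 2.06 in the YAC libraries and 2.78 and 2.80 in the integrated libraries. Of 14 permeases of amino acids, peptides and nitrogen sources, 4 were tested, with a median of −0.34. AGP1, a broad amino acid permease, had a summit in YAC replicate 2 (1.76) and in both integrated libraries (1.97 and 1.83), and BAP2, a branched-chain amino acid permease, in the same 3 libraries (1.85, then 1.81 and 2.16). PTR2, the transporter of di- and tripeptides, had a summit in the integrated libraries alone, at 1.73 and 1.77, and in none of the synHPRT1 libraries. TAT2, the tryptophan permease, had one in the integrated libraries alone, at 3.14 and 3.66, but in synHPRT1 it was the 2 YAC libraries that held it, at 3.21 and 3.35.

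Of 13 purine synthesis genes, 5 were tested, with a median of −0.22. ADE1 had a summit in YAC replicate 2 (2.201) and in both integrated libraries (1.82 and 1.67), and ADE2, phosphoribosylaminoimidazole carboxylase, had 1.78 and 1.92 in the YAC libraries and 2.28 and 2.05 in the integrated libraries. Of 12 cell wall mannoprotein genes, 2 were tested, with a median of −0.35. PIR1 had no summit, and HSP150 had one at its start in YAC replicate 2 (2.04) and in both integrated libraries (2.12 and 2.43), apart from the separated region farther upstream. CIS3, a member of the same family as PIR3, had 1.73 and 2.33 in the YAC libraries and 2.69 and 3.01 in the integrated libraries. No member of this list had a summit in more YAC than integrated libraries, and 4 had one in more integrated than YAC libraries. Of all 6002 genes these were 640 and 1084. The 4 were HSP150, PIR3, TIR1 and CWP1, each by a single library. HSP150, PIR3 and TIR1 have integrated-only regions named above, so this count is not independent of those regions.

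Of 16 genes of iron, copper and zinc uptake, 5 were tested, with a median of −0.30 and a range from −0.82 at CTR1 to −0.11. FIT1 and FIT2, cell wall proteins that retain siderophores, had no summit. FRE1, the metalloreductase that supplies copper to Ctr1, had a summit in YAC replicate 2 (1.501) and in both integrated libraries (1.85 and 2.01), and in neither YAC but both integrated libraries of synHPRT1 (2.09 and 2.34). AFT1, which encodes the iron regulator and stood outside the list, had a YAC-only region at 1.77 and 2.39 that no synHPRT1 library held, and was named after its values were seen. Of 14 genes of vitamins and inositol, 2 were tested, with a median of −0.24, and THI2 and THI4 of the thiamine pathway had no summit. Of 6 phosphate genes, SPL2 was tested, at −0.49, and PHO5 and PHO84 had no summit. None of 7 glucose transporter genes was tested: HXT1 had a summit in 3 libraries and HXT2 in none. Of 9 stress response genes, HSP104 was tested, at −0.08, and HSP12 and HSP26 had no summit. Of 9 genes taken as steady, 7 were tested, all with differences below the median of all genes and a median of −0.44. ACT1 had 1.38 and 2.33 in the YAC libraries and 2.79 and 2.11 in the integrated libraries, and TDH3 1.46 and 2.61 against 2.63 and 2.29, with YAC replicate 1 the lowest library in both. The groups overlapped at both genes.

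**Figure D4:**
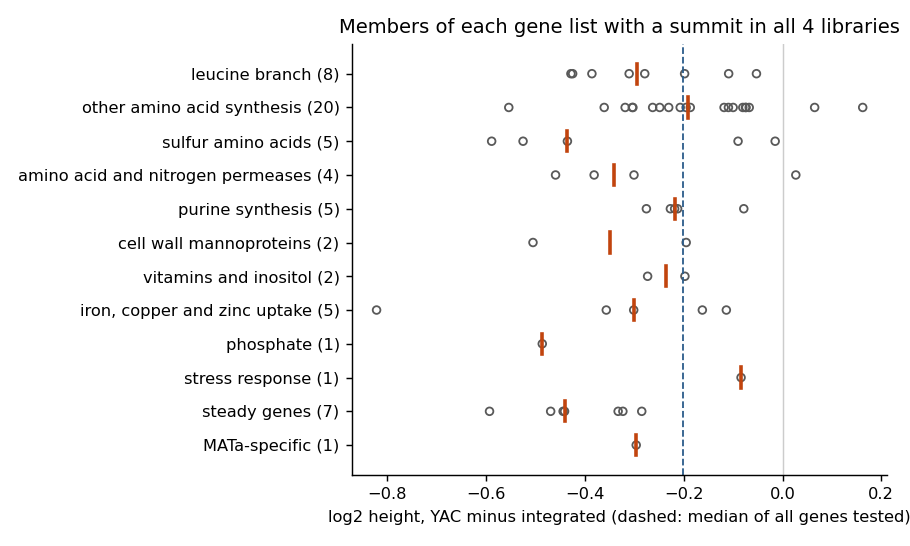
log2 difference in height, YAC minus integrated (x axis), of the members of each gene list with a summit in all 4 libraries (circles, number in brackets). Red bars mark the median of each list and the dashed line the median of −0.20 over all 2239 genes tested, and CTR1 is the circle at −0.82.

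The contrast was far larger on the synthetic contig, the sequence of the locus and its vector to which the authors aligned reads beside the genome. The first 100 kb is taken here as the locus and the rest as the vector, a round limit that leaves the last bases of the locus with the vector. In the locus the YAC libraries held 46 and 63 peaks and the integrated libraries 52 and 50, so the 2 contexts overlapped in the number of peaks when all were counted. The mean difference was 3.5 peaks, and it was 20 with peaks of a −log10 q of 10 or more and 22 with the 3000 highest peaks of each library. Peaks covered 45.3% and 42.1% of the locus in the YAC libraries and 30.7% and 31.1% in the integrated libraries, which averages 43.7% ± 2.2 and 30.9% ± 0.3 (SD, n = 2 each) and leaves a difference of 12.8 percentage points. Without YAC replicate 1 the difference was 11.2 percentage points. The median summit in the locus was 8.70 and 9.31 times the genome-wide background in the YAC libraries and 2.06 and 2.00 times in the integrated libraries. For the nuclear peaks of the same libraries the median was 1.94 and 2.32 in YAC and 2.36 and 2.44 in integrated cells.

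The background over the locus was raised along with the summits. The caller estimates a background around each peak from the library itself, and in the locus its median was 5.67 and 5.46 times the genome-wide value in the YAC libraries, against 1.04 and 1.04 times in the integrated libraries. Relative to this local background, and over all locus peaks of each library, the order was the other way. The median fold enrichment was 1.47 and 1.54 in the YAC libraries and 1.87 and 1.77 in the integrated libraries. Over the 32 contig regions with a peak in all 4 libraries the contexts overlapped. The medians there were 1.53 and 1.95 in the YAC libraries and 2.02 and 1.93 in the integrated libraries. The same ratio for nuclear peaks was 1.86 and 2.16 in YAC and 2.16 and 2.21 in integrated cells. The number of copies of the contig per cell was not measured in these files, so its part in the heights was not tested. The study estimated copies from whole-genome sequencing and corrected its episomal coverage for them. It reported more H3K4me3 coverage over the episomal locus than in the genome average.

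In all, the contig held 60 merged regions. A peak was present in all 4 libraries in 32 of them, all in the locus, in both YAC and no integrated libraries in 8, and in both integrated and no YAC libraries in 0. Over the 32 shared regions the YAC mean exceeded the integrated mean in every one, by 3.77 to 5.96 times with a median of 4.65 times. The lowest YAC value of any shared region, 7.29, was above the highest integrated value, 3.13. With YAC replicate 1 left out the median log2 ratio was 2.35, against 2.196 with all libraries.

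The pattern along the locus was partly shared. The highest shared region in YAC replicate 2, at 95817 to 97043 of the contig, had heights of 10.6 and 15.9 in the YAC libraries and 2.55 and 3.13 in the integrated libraries, and it was also the highest in integrated replicate 2. The region at 16046 to 18107 had 10.8 and 14.9 against 3.02 and 2.94, and was the highest in integrated replicate 1. The highest in YAC replicate 1 was a different region, at 44601 to 47037, with 12.2 and 12.8 in the YAC libraries against 2.102 and 2.32 in the integrated libraries. The region at 25587 to 29122 had 11.7 and 15.4 against 2.90 and 2.92, that at 56629 to 58341 had 9.82 and 12.8 against 2.35 and 2.33, that at 62153 to 64348 had 10.3 and 11.97 against 2.44 and 2.26, and that at the beginning of the locus, 110 to 5063, had 9.32 and 12.6 against 2.67 and 2.68. Across the 32 regions the log2 heights of YAC replicate 2 correlated with those of the integrated libraries at Pearson r of 0.77 and 0.86, those of YAC replicate 1 at 0.50 and 0.55, the 2 YAC libraries with each other at 0.78 and the 2 integrated libraries at 0.89. These are descriptions over regions that share their sequence and their libraries.

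Of the 8 YAC-only regions, 4 lay within the locus and 4 at its end or on the vector. The 4 in the locus, at 5883 to 6261, 20302 to 20529, 48405 to 48835 and 54153 to 55006, had heights of 5.87 to 9.63 in the YAC libraries, and the integrated libraries had no peak over them. The 4 others had the highest −log10 q of the YAC-only regions. The region at 99759 to 101076 spans the end of the locus and had 11.2 and 14.1, and those at 103430 to 104497, 105207 to 107720 and 110295 to 113922 had 8.25 and 13.5, 7.61 and 11.2, and 5.30 and 8.22. The integrated libraries had no peak beyond the first 100 kb. The study lists the integrated strain without the centromere, origin and LEU2 marker of the vector, so regions on the vector separate the strains by the DNA they hold. The other 20 regions, all in the locus, were held unevenly by colonies of the same strain. A peak was present in 1 YAC library alone in 8 of them and in 1 integrated library alone in 3, and 7 had a peak in 3 of the 4 libraries.

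**Figure D5:**
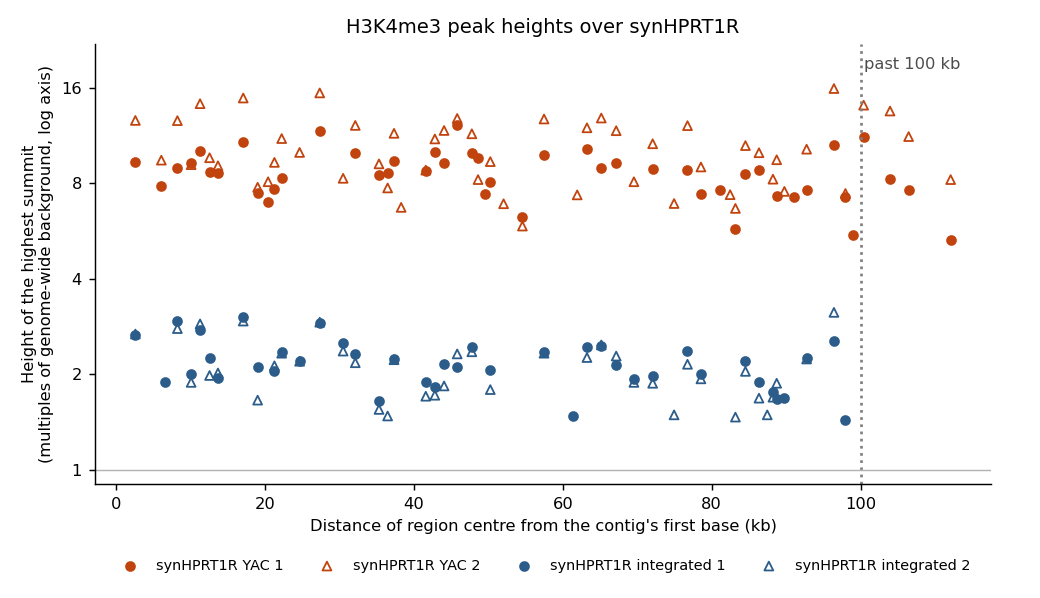
Height of the highest summit in each merged region (y axis, multiples of the genome-wide background, log scale) against the distance of the region's centre from the first base of the contig (x axis, kb), for 2 YAC libraries (red) and 2 integrated libraries (blue). All YAC values lie above all integrated values, and past 100 kb (dotted line), the limit set here for the locus, there are YAC values only.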

How the data were processed

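H3K4me3 was profiled by CUT&RUN in 2 colonies of each strain. The authors trimmed reads with Trimmomatic, aligned them with Bowtie2 2.2.9 to sacCer3 plus 1 contig holding the synthetic locus and vector, and called peaks in each library with MACS2 2.1.0 in paired-end mode, keeping duplicates and without a control. The deposited peak lists give the fold enrichment over a local background, a ratio, for each summit. They also give the −log10 of its p-value and q-value as deposited by the authors, and a score derived from the q-value, which was not used. Total reads were not analysed here, nor were the 8 IgG libraries. The fold enrichment and −log10 p were solved together for fragments and local background at each summit, and 1 peak missed the deposited value by over 0.02. Genome-wide background is the value shared by the peaks at the lower limit of the local background, 52.6% to 67.3% of nuclear peaks. Fragments of the contig and the mitochondrial genome may enter this value, and their part in the heights was not tested.

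Peaks of the 4 libraries were merged where they touched, and presence was 1 bp of overlap. Gene heights were tested with limma 3.58.1 (R 4.3.3, trend) on log2 values with no pseudocount and Benjamini-Hochberg adjustment at 0.05. Named were up to 12 separated regions a direction by median −log10 q, genes past the test, of each list those past the test or else the first 2, the strain markers and housekeeping genes, and up to 6 contig regions a class; others are said to be named after their values were seen, as are the genes given beyond the first 2 of a list. A few results that fall under this rule or beside it are not reported here. Members and lists were chosen with earlier results of these data known. Sequences are from the RefSeq copy of the R64 assembly, which holds all peak coordinates within its chromosomes. Scripts were tested on simulated data. Alternatives covered q thresholds, merging, overlap, scaling, pseudocount, the replicate number as a block, and leaving out each library.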

Additional observations from a re-analysis of the deposited data

Results flagged for a closer look

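Of the separated regions, 6 had the opposite pattern in the synHPRT1 strains, with every library of each context holding or lacking the peak the other way round. The difference was not tested. The YAC-only regions at CHL4, which encodes a kinetochore protein, and AIM25 had a median −log10 q of 5.91 and 3.64 in the synHPRT1R YAC libraries. CHL4 had heights of 1.69 and 1.44 there, and 1.60 and 1.78 in the synHPRT1 integrated libraries. The integrated-only regions at TFA1, UGA2, RPC34 and RPR2 had a median −log10 q of 10.8, 6.75, 5.31 and 4.94 in the synHPRT1R integrated libraries. TFA1, which encodes a subunit of the general factor TFIIE, had 1.95 and 2.16 there and 1.64 and 1.59 in the synHPRT1 YAC libraries.

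Peaks on the mitochondrial genome, which has no nucleosomes and took no part in the comparisons, numbered 36 and 27 in the YAC libraries and 15 and 18 in the integrated libraries, so that both YAC libraries were above both integrated libraries.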

How the results depend on the processing

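When only peaks with a −log10 q of 10 or more counted, YAC-only nuclear regions numbered 25 (51 with all peaks) and integrated-only 124 (110), and contig regions 15 YAC-only and 1 integrated-only (8 and 0). With the 3000 peaks of highest −log10 q of each library, YAC-only nuclear regions numbered 67 (51) and integrated-only 68 (110). Leaving out 1 library loosens the rule for its group. YAC-only nuclear regions then ranged from 82 to 152 and integrated-only from 155 to 353. Those of the contig ranged from 9 to 19 and from 0 to 4. The difference in locus coverage was 19.8 percentage points with that q threshold and 20.4 with 3000 peaks (12.8), from 11.2 to 14.4 with 1 library left out. The difference in the number of locus peaks was 20 and 22 under the same 2 settings (3.5), from −5 to 12 with 1 library left out, the −5 being without YAC replicate 2. The median log2 ratio of shared locus summits was 2.41 when divided by the median summit of genes (2.196), from 2.05 to 2.35 with 1 library left out. Regions over 200 bp from a peak of the other context, an alternative chosen after seeing the data, numbered 48 YAC-only and 99 integrated-only.

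Centring gave 0 genes higher and 1 lower (CTR1) by limma. With 1 library left out, 0 to 6 were higher and 0 to 1410 lower, the extremes without YAC replicate 2. The log2 difference of CTR1 ranged from −1.10 to −0.54 and that of SIS1 from −0.86 to −0.50 when 1 library was left out. The adjusted p of CTR1 in limma, 0.34 with all libraries, then ranged from 4.29e-15 to 0.999, and was 0.914 with crossed numbers. Same-numbered colonies share only a number: their deviations correlated at 0.0083 over 2239 genes. With the replicate number as a block 0 genes were called, as with crossed numbers, and centring with the block, both chosen after seeing the data, gave 2 higher (SYP1, HMRA1) and 1 lower (CTR1). Other alternatives kept the direction and the call. With 2 colonies a strain, depth and spread limit what single regions can show, and the causes of these shifts were not tested.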
